A study of Mus musculus with 12 samples.

Results

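The transcripts described here encode 8 subunits of GABA receptors in the mouse pineal gland, 6 of the GABA-A type (Gabra3, Gabra4, Gabrb1, Gabrb2, Gabrd and Gabrg1) and 2 of the rho type (Gabrr1 and Gabrr2). All 19 probe sets annotated to these genes were taken, out of 45037 probe sets on the array that are not control features. Of the 19, 11 passed the filter on low signals, and every one of the 8 genes kept at least 1 probe set among the 12379 genes tested. The 8 genes were picked because of how they differed between genotypes in these same arrays, so their genotype differences are given as a description, with no test.

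GABA-A receptors are chloride channels built from 5 subunits arranged around a pore, and the subunit make-up sets where a receptor sits and how it responds to GABA. Most synaptic receptors combine alpha, beta and gamma subunits, whereas the delta subunit takes part in receptors outside synapses that answer to low ambient GABA. The rho subunits form receptors of their own that desensitise slowly and are best known from retinal bipolar cells. The pinealocyte, the hormone-secreting cell of the pineal gland, shares an origin and many genes with retinal photoreceptors, and Crx is a homeodomain transcription factor of both cell types.

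Total RNA of pineal glands was measured on 12 Affymetrix arrays, 3 in each of 4 groups: control mice of strain 129sv and Crx-/- mice, each collected at Zeitgeber time (ZT, hours after lights on) 6, in the day, and at ZT20, in the night. Mice of both sexes, over 2 months old, lived under 12 h of light and 12 h of darkness and were killed with CO2 and decapitation, at ZT20 under dim red light. The labels give both genotypes the strain 129sv. They call the arrays biological replicates without saying whether glands were pooled, so p-values measure the spread between these samples. Crx itself had signals of 6025 to 7481 in Crx-/- glands and 6468 to 6901 in control glands at ZT6 on its brighter probe set, which overlap. Its dimmer probe set separated the genotypes at ZT6, with 2141 to 2371 in control and 1305 to 1464 in Crx-/- glands, and overlapped at ZT20 (2085 to 3902 and 2039 to 2309). Where these probes lie relative to the deleted part is not given in the sources used here.

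Signals below are quantile-normalized values of the deposited intensities, with no unit. The background of an array is its highest signal among 27 probe sets for Bacillus transcripts, and it lay between 9.14 and 18.2. Tests were made with limma on log2(signal + 3.4), all 12 arrays in a single fit. A log2 difference is given with its standard error (SE), and a call means a Benjamini-Hochberg adjusted p under 0.05 over all 12379 genes, two-sided.

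On 2 arrays the values stood apart from their group, on the first over all genes and on the second in forebrain neuron transcripts. The array labelled control ZT20 replicate 3 correlated at 0.915 to 0.925 with its own group over all genes and at 0.970 to 0.989 with the Crx-/- ZT20 arrays. Results that use control ZT20 are therefore given with it and with it left out. The array labelled Crx-/- ZT6 replicate 3 carried forebrain neuron transcripts at levels seen on no other array, among them the kinase Camk2a at 2578 against 229 or less elsewhere. Over all genes that array correlated at 0.979 to 0.981 with its own group, where the other arrays of the group had 0.979 to 0.985.

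Among the marker lists, the summed astrocyte signal (7 genes) was 10262 to 10903 in control and 15989 to 20420 in Crx-/- glands at ZT6, and 6 of the 7 genes were called higher in Crx-/- glands over both times, where 43.4% of all genes were called in either direction. The pinealocyte sum (10 genes) was 65400 to 65738 and 55037 to 59003, with 1 of the 10 called higher and 4 lower. Crx itself is on that list, so the sum does not measure pinealocyte number independently of genotype. The sum of 14 genes of brain and habenular neurons was 29867 to 30949 and 24443 to 29138, but of the 11 tested 6 were called higher and 3 lower. The bright Slc17a6 and Chrna3 weigh most in that sum, and which cells of the gland carried them was not tested. The sum of 5 fibroblast and meningeal genes was 12194 to 13355 and 25733 to 26989, and all 5 were called higher. Oligodendrocyte sums (6 genes measured) were 2574 to 2946 and 4472 to 5940 at ZT6 and 2453 to 3528 and 4236 to 5012 at ZT20, with all 3 tested genes called higher. Choroid plexus sums (5 genes) were 32519 to 35178 and 35823 to 40451 at ZT6 and 25804 to 37493 and 36977 to 38528 at ZT20, with 3 called higher. At ZT20 the control and Crx-/- sums were 11675 to 17781 and 16105 to 17334 for astrocytes, 55662 to 64257 and 54926 to 56526 for pinealocytes, 26011 to 31887 and 25215 to 27054 for neurons, and 17627 to 24676 and 23152 to 24684 for fibroblasts. Of 9 measured markers of retinal bipolar cells 7 were tested, with 2 called higher and 2 lower. Their sums were 6453 to 6780 in control and 4605 to 4990 in Crx-/- glands at ZT6, and 4497 to 4834 and 4284 to 4577 at ZT20, over the 9 measured. Every marker exceeded background on at least 1 array. The 5′ to 3′ signal ratio of actin, a sign of RNA integrity, was 0.248 to 0.283 in control and 0.169 to 0.219 in Crx-/- arrays at ZT6. At ZT20 the ratios overlapped, with 0.197 to 0.337 in control, the highest on replicate 3, and 0.197 to 0.282 in Crx-/- arrays. The part of cell composition and of RNA quality in the results below was not tested, and in whole glands fewer cells of a type and less RNA per cell cannot be told apart.

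Gabrr1 and Gabrr2 are immediate neighbours among the protein-coding genes of chromosome 4, and their transcripts differed between the genotypes in opposite directions. The 250 bases before the annotated start of each are shown because of this contrast, from RefSeq on GRCm38.p6. Capitals mark TGACG, the core of a cAMP response element, in Gabrr1 (chr4:33132306-33132555, plus strand) and GGATTA, the reverse complement of the TAATCC core recognised by Crx and Otx homeodomains, in Gabrr2 (chr4:33062862-33063111, plus strand).
Gabrr1: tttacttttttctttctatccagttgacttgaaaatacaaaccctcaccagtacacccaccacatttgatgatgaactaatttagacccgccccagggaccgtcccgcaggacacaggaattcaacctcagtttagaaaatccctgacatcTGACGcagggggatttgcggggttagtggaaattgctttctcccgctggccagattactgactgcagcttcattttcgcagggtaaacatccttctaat
Gabrr2: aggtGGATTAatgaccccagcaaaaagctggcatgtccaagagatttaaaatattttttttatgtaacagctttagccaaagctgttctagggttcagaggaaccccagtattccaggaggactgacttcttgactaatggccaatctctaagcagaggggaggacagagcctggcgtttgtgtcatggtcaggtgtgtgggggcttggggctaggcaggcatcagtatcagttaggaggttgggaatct

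Of the 8 genes, 7 had such a window (Gabrd did not), and 5 motifs were searched on both strands. TAATCC was found in the windows of 1 of the 7 genes, Gabrr2, starting 246 bases before the annotated start, and in 6.25% of all 32851 windows of this length. TGACG was found only in Gabrr1 among the 7, 99 bases before the start, and in 17.8% of all windows. TAATTA, a core of many other homeodomains, was found in Gabrg1 at 2 overlapping places, 182 and 178 bases before the start, and in 4.84% of all windows. The E-box CACGTG and the full cAMP response element TGACGTCA were in none of the 7 genes' windows and in 6.02% and 1.55% of all windows. A match is a string of letters in a window and says nothing about binding.

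Gabrd, which encodes the delta subunit of extrasynaptic receptors, had the widest range of the 8 genes. On its probe set 1449980_a_at the control glands read 800.4, 1072 and 1453 at ZT6 and 183.5, 151.4 and 16.7 at ZT20. The Crx-/- glands read 13.4, 9.85 and 47.3 at ZT6 and 3.54, 5.49 and 2.88 at ZT20. The order from high to low was control ZT6, control ZT20, Crx-/- ZT6 and Crx-/- ZT20, of which the middle pair overlapped. The control and Crx-/- arrays did not overlap at either time, and 16.7, the lowest control value at ZT20, was on the array that stood apart. Only 1 of the 3 Crx-/- arrays at ZT6 and none at ZT20 exceeded background, so the lower levels of Crx-/- glands are bounds.

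The Crx-/- minus control difference of Gabrd was -5.59 ± 0.74 (log2, n = 3 against 3) at ZT6 and -3.52 ± 0.74 at ZT20. Measured against background, with no constant added to the signals, Gabrd was at least 5.61-fold lower in Crx-/- glands at ZT20, and at least 12.1-fold lower without the array labelled control ZT20 replicate 3. At ZT6, where 1 of the 3 Crx-/- arrays was measured, the corresponding bound was 47.2-fold. A further Gabrd probe set, 1457763_at, exceeded background on 1 array, control ZT6 replicate 2, and gives no second measure of the gene.

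Within control glands Gabrd fell by 3.69 ± 0.74 on the log2 scale from day to night (limma, adjusted p = 0.00608). Without the array that stood apart it fell by 2.67 ± 0.47 (adjusted p = 0.00122), and the day and night arrays did not overlap in either case. In Crx-/- glands the night minus day difference was -1.62 ± 0.74 (adjusted p = 0.371). Leaving out that control array, which changes only the shared spread here, gave an adjusted p of 0.0379 for the same difference. Since 5 of these 6 Crx-/- arrays were at background, that difference has no measured lower end.

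Gabrr1, encoding the rho1 subunit, was the other transcript that was lower in Crx-/- glands. On its only probe set, 1450300_at, the control glands read 175.2, 151.2 and 202.4 at ZT6 and 505.7, 505.6 and 50.5 at ZT20. In glands of Crx-/- mice it read 8.91, 8.55 and 7.40 at ZT6, all at background, and 43.0, 102.1 and 35.5 at ZT20, all above it. The genotypes were separated at ZT6. At ZT20 the array labelled control ZT20 replicate 3 lay within the Crx-/- values while the other 2 control arrays were above all Crx-/- arrays. Those 2 agreed to within 0.1 signal units after normalization only, their deposited signals being 280.7 and 447.9.

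At ZT6 the Gabrr1 difference was -3.94 ± 0.70, and control glands were at least 12.2-fold above the background that bounds the Crx-/- level. At ZT20 it was -2.07 ± 0.70, or -3.15 ± 0.36 without the array that stood apart. The order of the 4 groups was control ZT20, control ZT6, Crx-/- ZT20 and Crx-/- ZT6. The first pair did not differ beyond its spread on all arrays.

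The day to night difference of Gabrr1 depended on that array. In control glands it was 0.43 ± 0.70 (limma, adjusted p = 0.712), and without the array Gabrr1 rose by 1.51 ± 0.36 (adjusted p = 0.00869). For Crx-/- glands the difference was 2.30 ± 0.70 (adjusted p = 0.161), with every ZT20 array above every ZT6 array and a ratio of at least 3.76-fold over background. With the array left out, the same Crx-/- values gave 2.30 ± 0.33 and passed the test (adjusted p = 0.000736).

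Gabrr2, encoding the rho2 subunit, ran the other way from its neighbour. Its probe set 1420735_at read 21.0, 1.64 and 20.3 in control glands at ZT6 and 73.2, 120.3 and 239.9 at ZT20. The Crx-/- glands read 323.9, 337.8 and 317.7 at ZT6 and 456.8, 335.0 and 262.4 at ZT20. Control ZT6 was at or near background, with 1 array below it, control ZT20 was intermediate, and the Crx-/- groups were highest and overlapped each other. No control array reached the lowest Crx-/- array of its time, and the closest, 239.9 against 262.4, was the array that stood apart.

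The Crx-/- minus control difference of Gabrr2 was 4.53 ± 0.55 at ZT6 and 1.39 ± 0.55 at ZT20, the latter 1.83 ± 0.53 without that array. With control ZT6 held at background where it was dimmer, the ZT6 ratio was 18.1-fold, a bound in which 2 of 3 control arrays were measured. Within control glands Gabrr2 rose at night by 3.21 ± 0.55 (limma, adjusted p = 0.00272), and by 2.77 ± 0.53 (adjusted p = 0.00205) without the array, with day and night separated in both cases. The bounds on that rise were 7.13-fold and 5.22-fold. In Crx-/- glands the night minus day difference was 0.07 ± 0.55 (adjusted p = 0.979), with a 95% interval of -1.13 to 1.27.

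**Figure D1:**
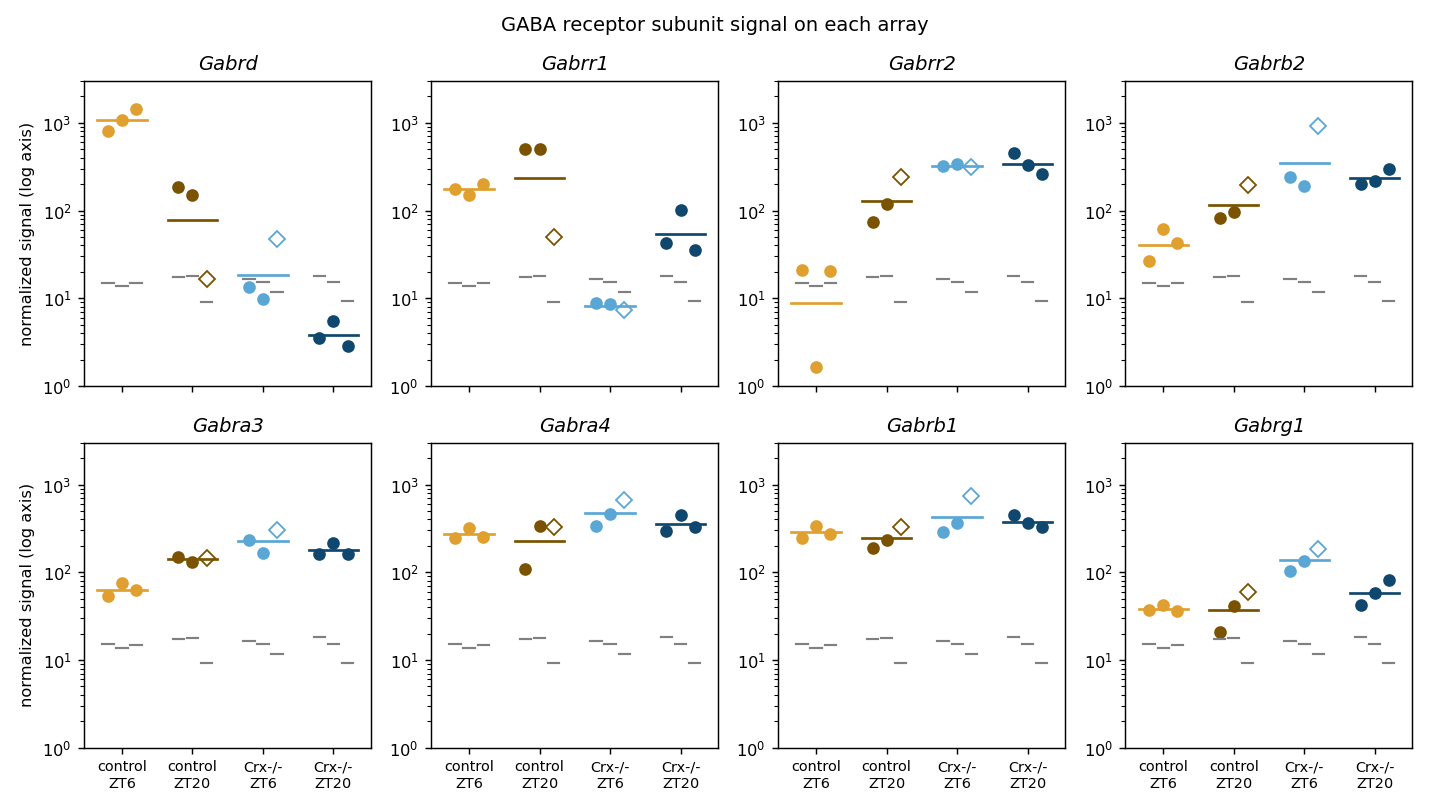
Normalized signal (log axis) of each of the 8 subunits on its tested probe set, by group, with 1 point per array, 3 arrays a group, a coloured bar at the geometric mean of each group and short grey bars at each array's background. Open diamonds are the arrays labelled control ZT20 replicate 3 and Crx-/- ZT6 replicate 3. Gabrd ran from 1453 down to 2.88 and Gabrr1 reached background in Crx-/- glands at ZT6, while Gabrr2 was near background in control glands at ZT6 and at 262.4 or more in every Crx-/- gland.

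Gabra3 encodes the alpha3 subunit, which is found in synaptic receptors of many brainstem and monoaminergic neurons. Its probe set 1436957_at read 53.6, 75.1 and 63.4 in control glands at ZT6 and 149.9, 130.4 and 146.3 at ZT20. In glands of Crx-/- mice it read 235.0, 166.5 and 299.9 at ZT6 and 162.6, 217.5 and 160.5 at ZT20. Every array was above background. Control ZT6 was the lowest group and stood clear of all others, and both Crx-/- groups were above both control groups array by array, but the Crx-/- groups overlapped each other.

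For Gabra3 the array labelled control ZT20 replicate 3 lay between the other 2 of its group. The genotype difference was 1.79 ± 0.24 at ZT6 and 0.32 ± 0.24 at ZT20. Within control glands Gabra3 rose at night by 1.12 ± 0.24 (limma, adjusted p = 0.00807). The rise did not pass on the signals as deposited, without quantile normalization (0.84, adjusted p = 0.206). For Crx-/- glands the night minus day difference was -0.34 ± 0.24 (adjusted p = 0.586).

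Gabra4 encodes the alpha4 subunit, a partner of delta in extrasynaptic receptors of the forebrain. On probe set 1433707_at the control glands read 246.3, 321.9 and 249.5 at ZT6 and 109.2, 336.7 and 331.4 at ZT20. The Crx-/- glands read 333.0, 466.0 and 665.0 at ZT6 and 299.0, 454.4 and 330.2 at ZT20. The genotypes did not overlap at ZT6, by a narrow gap between 321.9 and 333.0, and overlapped at ZT20. The difference was 0.79 ± 0.38 at ZT6 and 0.62 ± 0.38 at ZT20, or 0.88 ± 0.38 at ZT20 without the array that stood apart.

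Gabrb1 encodes the beta1 subunit. On its tested probe set, 1435095_at, it read 249.1, 336.2 and 275.1 in control glands at ZT6 and 189.7, 236.5 and 326.4 at ZT20. In glands of Crx-/- mice it read 289.1, 362.8 and 742.5 at ZT6 and 444.5, 365.8 and 324.7 at ZT20. The genotypes overlapped at both times, and the highest value was on the array labelled Crx-/- ZT6 replicate 3. The difference over both times was 0.60 ± 0.22, or 0.40 without that Crx-/- array. At ZT6 it was 0.58 ± 0.30, and 0.18 ± 0.24 without that array. Its further probe set 1419719_at gave 0.69 ± 0.17.

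Gabrb2 encodes the beta2 subunit, a component of the most common synaptic receptor of the brain. On probe set 1428203_at the control glands read 26.4, 61.0 and 42.8 at ZT6 and 82.3, 97.7 and 196.7 at ZT20. The Crx-/- glands read 242.2, 190.0 and 924.2 at ZT6 and 199.1, 220.1 and 297.1 at ZT20. The genotypes did not overlap at either time, though at ZT20 the array that stood apart, at 196.7, came close to 199.1. The value of 924.2 was on the array labelled Crx-/- ZT6 replicate 3.

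The genotype difference of Gabrb2 was 2.99 ± 0.52 at ZT6 and 0.99 ± 0.52 at ZT20. Without Crx-/- ZT6 replicate 3 it was 2.29 ± 0.40 at ZT6, and without control ZT20 replicate 3 it was 1.36 ± 0.52 at ZT20. The night minus day difference in control glands was 1.43 ± 0.52 (limma, adjusted p = 0.0823), with all ZT20 arrays above all ZT6 arrays. It passed without Crx-/- ZT6 replicate 3 (adjusted p = 0.0236) and did not without control ZT20 replicate 3 (1.06 ± 0.52, adjusted p = 0.150). In Crx-/- glands the difference was -0.57 ± 0.52, and 0.13 ± 0.40 without Crx-/- ZT6 replicate 3, neither passing the test. The other kept Gabrb2 probe sets differed from this in control glands. Night minus day was 1.10 ± 0.61 on 1428205_x_at and 0.29 ± 0.70 on 1428204_at, the latter with day and night overlapping. Without control ZT20 replicate 3 the values were 0.48 ± 0.56 and -0.27 ± 0.70.

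Gabrg1 encodes the gamma1 subunit. On probe set 1460408_at it read 37.5, 42.6 and 35.8 in control glands at ZT6 and 20.9, 41.0 and 60.4 at ZT20. In glands of Crx-/- mice it read 104.5, 135.7 and 184.6 at ZT6 and 42.1, 57.4 and 81.1 at ZT20. Crx-/- ZT6 was the highest group and overlapped no other, whereas the other 3 groups overlapped. The genotype difference was 1.75 ± 0.38 at ZT6 and 0.59 ± 0.38 at ZT20, or 0.91 ± 0.37 without the array that stood apart.

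Within Crx-/- glands the night minus day difference of Gabrg1 was -1.20 ± 0.38 (limma, adjusted p = 0.184). With control ZT20 replicate 3 left out the limma adjusted p was 0.0479. Gabrg1 reached the array median only on the 3 Crx-/- ZT6 arrays. It was therefore tested only because that group was high, and nothing is read from these p-values. In control glands it was -0.03 ± 0.38 (adjusted p = 0.968).

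Several of these genes were read by more than 1 probe set. For Gabrb2, 3 further probe sets differed between genotypes by 1.91 to 2.26 over both times, beside 1.99 for the tested one, while 1450319_at exceeded background on 2 arrays and gave 0.02. For Gabrg1 the dimmer 1427227_at gave 0.77 ± 0.45, and for Gabra4 the dimmer 1429330_at gave 0.53 ± 0.41. Gabrb1 probe sets disagreed, since 1443205_at, above background on all 12 arrays with signals of 18.5 to 47.7, gave -0.02 ± 0.24, and 1443834_at was never above background. For Gabra3, 1421263_at exceeded background on 2 arrays. Gabrr1 and Gabrr2 had 1 probe set each.

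**Figure D2:**
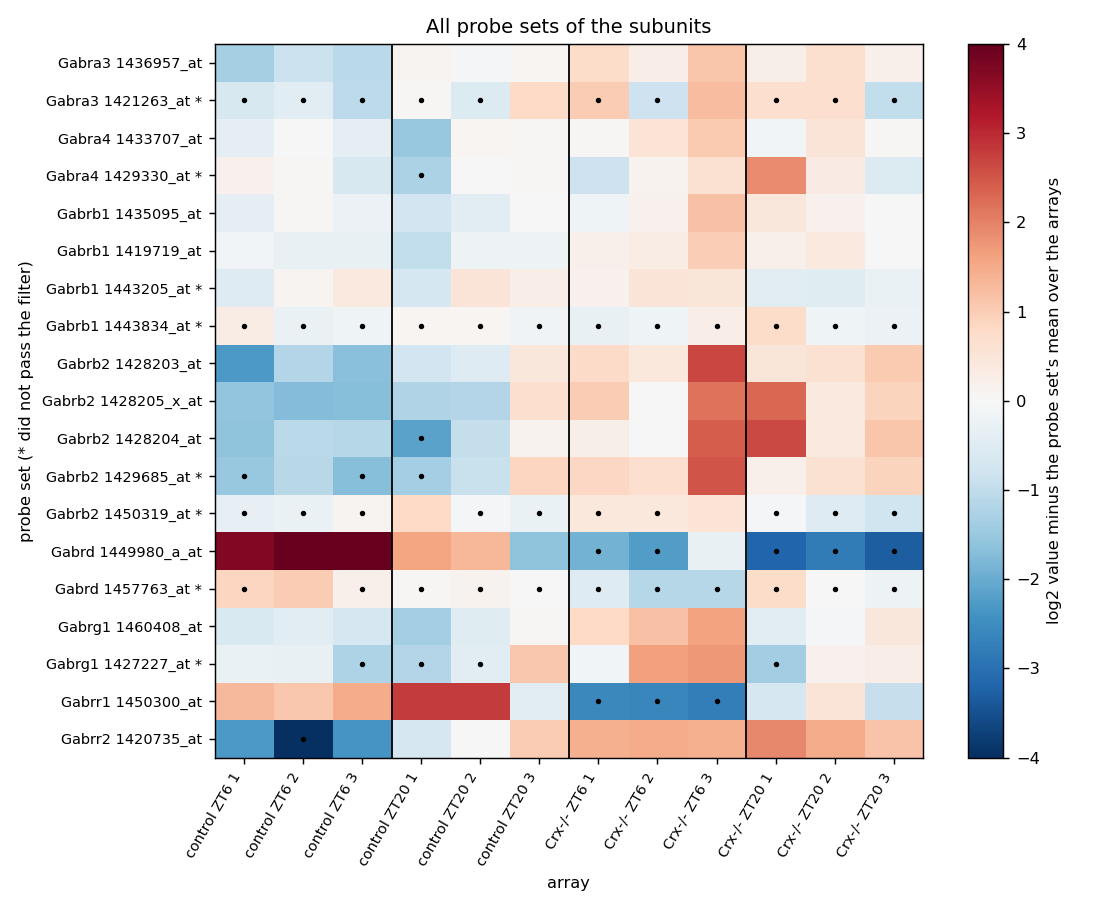
Log2 value of each of the 19 probe sets (rows) on the 12 arrays (columns), as the difference from that probe set's mean over the arrays, with red above and blue below the mean and colours stopping at 4. Dots mark arrays at or below background and asterisks probe sets that did not pass the filter, such as Gabrb1 1443834_at with all 12 arrays at background.

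Over both times, 7 of the 8 genes passed the call rule by genotype, 5 higher and 2 lower in Crx-/- glands, where 43.4% of all genes tested passed it. All 8 passed with control ZT20 replicate 3 left out, where 55.9% of all genes did. At ZT6 the count was 6 (32.0% of all genes), and without that array, through the shared spread, also 6 (43.5%). At ZT20 it was 1, Gabrd (11.7%), and 5 without the array (43.6%). The groups did not overlap at ZT6 for 7 of the 8 genes (55.1% of all genes), and at ZT20 for 4 (27.2%) or, without the array, for 7 (62.9%). The genes were chosen on this contrast, and nothing is read from these counts.

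The authors' deposited table, which compares Crx-/- with control glands irrespective of time, lists 4 of the 8 genes. In the authors' deposited table Gabrb2 is up by 1.56 and Gabrr2 by 1.97 (log2), and Gabrd and Gabrr1 are down, with -2.99 and -2.19. The other 4, Gabra3, Gabra4, Gabrb1 and Gabrg1, are not among the genes of the authors' deposited table. The values of the present fit over both times were 1.99 ± 0.37 for Gabrb2, 2.96 ± 0.39 for Gabrr2, -4.55 ± 0.52 for Gabrd and -3.00 ± 0.50 for Gabrr1, with the same directions and larger sizes.

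**Figure D3:**
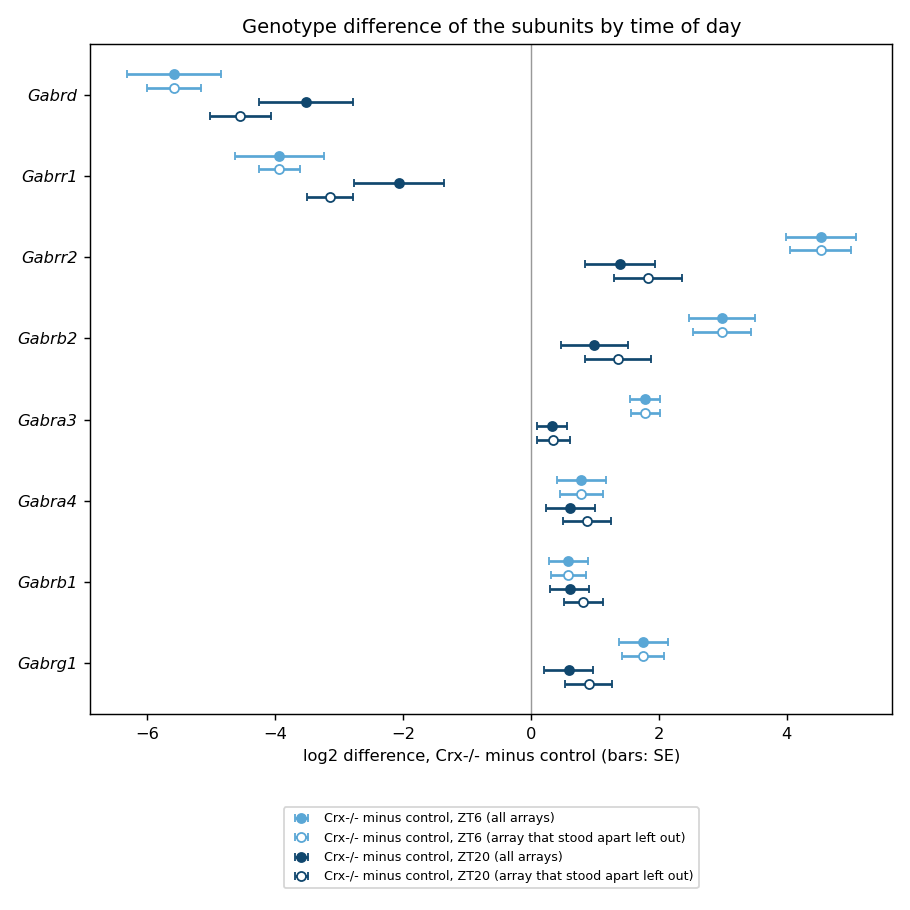
Crx-/- minus control log2 difference of each subunit at ZT6 (light) and ZT20 (dark), with bars of 1 SE, from all 12 arrays (filled) and with control ZT20 replicate 3 left out (open). Gabrd ran from -5.59 at ZT6 to -3.52 at ZT20 and Gabrr2 from 4.53 to 1.39, while Gabra4 and Gabrb1 were near 0.6 to 0.8 at both times on all 12 arrays. Without the array labelled Crx-/- ZT6 replicate 3, which is not drawn, the ZT6 value of Gabrb1 was 0.18.

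Day and night were then compared within each genotype, a contrast that was not used to choose the genes but that shares arrays with it. In control glands 3 of the 8 genes passed, Gabra3 and Gabrr2 higher and Gabrd lower at night, against 16.2% of all genes tested. Without the array that stood apart 4 passed, with Gabrr1 also higher, against 25.1% of all genes. Gabra4, Gabrb1, Gabrb2 and Gabrg1 did not pass in either case. The members went in both directions, with a median difference of 0.20, or 0.36 without that array, beside -0.02 and -0.03 for all genes.

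In Crx-/- glands none of the 8 passed by limma, and 3 (Gabrd, Gabrg1 and Gabrr1) had an unadjusted p under 0.05. Of all genes 1.57% were called, and 13.2% had an unadjusted p under 0.05. Without the control array that stood apart those 3 passed, Gabrr1 higher and Gabrd and Gabrg1 lower at night, where 6.09% of all genes were called. Gabrg1 came through the filter only by its high Crx-/- ZT6 arrays, so nothing is read from its pass. The only Crx-/- array on which Gabrd exceeded background was Crx-/- ZT6 replicate 3, and without that array the difference of Gabrd was -1.04 ± 0.77 (adjusted p = 0.588). With both arrays left out, Gabrd (adjusted p = 0.0674) and Gabrg1 (adjusted p = 0.120) did not pass and Gabrr1 did. Gabrr2 and Gabra3, which rose at night in control glands, did not pass in Crx-/- glands in either case.

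Whether the day to night difference itself depended on genotype was tested as the interaction. It is the ZT20 genotype difference minus the ZT6 one, so it is not independent of the choice of genes if they were picked at a single time rather than over both. No subunit passed on all 12 arrays by limma, and 3 had an unadjusted p under 0.05. Of all genes 0.234% were called, and 13.6% had an unadjusted p under 0.05. The estimates of these 3 were -1.47 ± 0.33 for Gabra3 (adjusted p = 0.0956), -3.14 ± 0.78 for Gabrr2 (adjusted p = 0.121) and -1.996 ± 0.74 for Gabrb2 (adjusted p = 0.260). The other kept Gabrb2 probe sets gave interactions of -0.975 ± 0.86 (1428205_x_at) and 0.20 ± 0.99 (1428204_at). With control ZT20 replicate 3 left out, 2 of the 8 passed, where 6.16% of all genes did. These were Gabra3 at -1.44 ± 0.34 (adjusted p = 0.0273) and Gabrr2 at -2.70 ± 0.71 (adjusted p = 0.0411). Both had a night rise in control glands that passed and a difference in Crx-/- glands that did not, of -0.34 for Gabra3 and 0.07 for Gabrr2.

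For Gabrd the interaction was 2.07 ± 1.04 (adjusted p = 0.407), and 1.04 ± 0.64 (adjusted p = 0.367) without control ZT20 replicate 3, with its Crx-/- night values at background. For Gabrr1 it was 1.87 ± 0.99 (adjusted p = 0.434), and without that array 0.79 ± 0.49 (adjusted p = 0.375). The fall of Gabrd and the night difference of Gabrr1 were thus not shown to differ between genotypes in these fits. With both arrays that stood apart left out, the interaction of Gabrd passed at 1.63 ± 0.44 (adjusted p = 0.0420). No Crx-/- array left in that fit exceeded background for Gabrd. Its Crx-/- difference was thus not measured, and nothing is read from that pass.

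**Figure D4:**
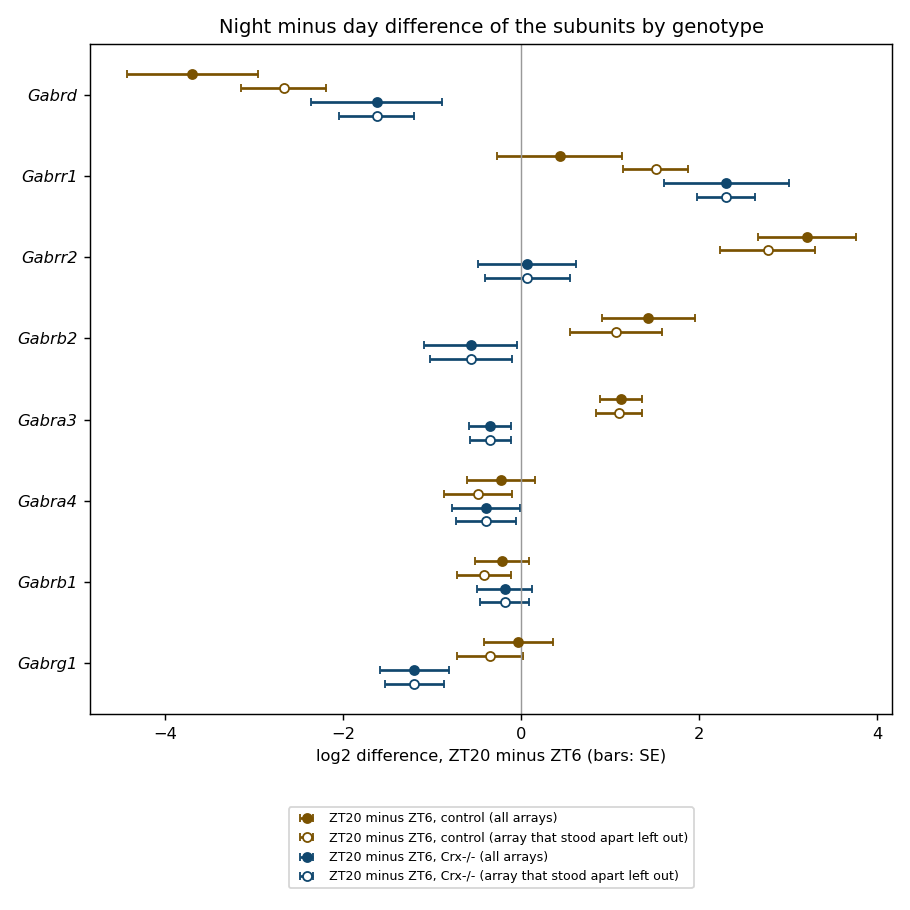
ZT20 minus ZT6 log2 difference of each subunit in control (brown) and Crx-/- (blue) glands, with bars of 1 SE, from all 12 arrays (filled) and with control ZT20 replicate 3 left out (open). In control glands Gabrr2 was at 3.21 and Gabrd at -3.69, and in Crx-/- glands Gabrr2 was at 0.07 and Gabrr1 at 2.30.

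Among themselves, the subunits fell into unlike patterns. Likeness was measured as the root mean square difference of log2 values over the 12 arrays after centring each gene on its mean, where 0 means identical profiles. The most alike pair was Gabra4 and Gabrb1, neighbours on chromosome 5, at 0.35. The neighbours Gabrr1 and Gabrr2 were at 3.46, and the least alike pair was Gabrd and Gabrr2 at 4.70. Gabrd and Gabrr1, both lower in Crx-/- glands, were 2.22 apart.

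By the same measure, the tested genes most like Gabrr2 were the calcium-binding protein Calb2 (0.68), Rimbp2 (0.71) and Neurod2 (0.75), and those most like Gabrr1 were the receptor kinase Ret (0.57), the myogenic factor Myog (0.62) and Lrit1 (0.68). Those most like Gabrd were the synaptic vesicle protein Syngr3 (0.96), Fads2b (0.98) and Clca1 (1.07). Gabra3 was closest to D630004K10Rik (0.20), Prokr1 (0.21) and Shisa3 (0.21), and Gabrb2 to Sowaha (0.32), Mal2 (0.35) and Frrs1l (0.47). The centred profiles of Gabrd and Gabrr2 ranged over 7.86 and 6.51 log2 units, against 2.41 for Gabra3.

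Of 7 further receptor subunits measured, none had a probe set that passed the filter. Gabra5, Gabra6, Gabre, Gabrg3, Gabrp and Gabrq exceeded background on at most 3 arrays per probe set, with no signal above 38.0. Gabra2, which encodes the alpha2 subunit and neighbours Gabrg1, exceeded background on 8 arrays on probe set 1455444_at and read 556.4 on Crx-/- ZT6 replicate 3 against 55.0 or less elsewhere.

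That same array carried GABA-synthesising enzymes. Gad2, encoding a glutamate decarboxylase, read 198.4 there on its brighter probe set and 16.99 or less elsewhere. Gad1, the other decarboxylase, read 522.1 there, 37.6 and 28.7 on the other Crx-/- ZT6 arrays and 19.9 to 24.2 at ZT20. The control glands read 66.6, 92.1 and 115.9 at ZT6 and 122.5, 146.7 and 8.42 at ZT20, the last on the array that stood apart. Setting both arrays that stood apart aside, every control gland read more Gad1 than every Crx-/- gland, but on all arrays the difference was -0.65 ± 0.73 (limma, adjusted p = 0.488).

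Of the 40 other genes of GABA signalling on the list, 22 were tested. On all arrays the share that passed by genotype was near that of all genes over both times and at ZT6, and larger at ZT20. Over both times 10 of the 22 passed by limma, 1 higher and 9 lower, against 43.4% of all genes (3135 higher and 2242 lower), and with control ZT20 replicate 3 left out it was 15, with 4 higher and 11 lower, against 55.9%. The median difference of the 22 was -0.21, beside 0.04 for all genes. On the signals as deposited 3 of the 22 passed over both times. At ZT6 7 passed, 1 higher and 6 lower, against 32.0% of all genes (2339 higher and 1617 lower). At ZT20 6 passed, all lower, against 11.7% (850 higher and 594 lower), and without that array 15, with 4 higher and 11 lower, against 43.6%.

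The proteins that carry and anchor receptors made up most of the 22 tested genes, with 14. Over both times 7 of these 14 were called, 6 of them lower, where 43.4% of all genes were called. Hap1, a trafficking adaptor that returns internalised GABA-A receptors to the surface, read 2271 to 2550 in control and 976.2 to 1240 in Crx-/- glands at ZT6. At ZT20 it read 2588, 2041 and 980.0 in control glands, the last on the array that stood apart, and 779.6 to 841.0 in Crx-/- glands. It was lower in Crx-/- glands by -1.09 ± 0.19 (adjusted p = 0.00101), and by -1.30 ± 0.09 (adjusted p = 5e-08) without that array.

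The GABARAP family, small proteins of receptor trafficking and autophagy, had 3 members tested, all called lower. Gabarapl1 read 5502 to 5732 in control and 2889 to 3022 in Crx-/- glands at ZT6, and at ZT20 6320, 6064 and 3161 against 2836 to 3155. The genotypes did not overlap at either time, although the array that stood apart was next to the Crx-/- values. Gabarapl1 was lower by -0.83 ± 0.14 (adjusted p = 0.000929), Gabarap by -0.46 ± 0.06 (adjusted p = 0.000293) and Gabarapl2 by -0.36 ± 0.06 (adjusted p = 0.00122). Probe sets of such close paralogs can share signal.

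Lhfpl4, which holds receptors at inhibitory synapses, was lower by -0.53 ± 0.15 (adjusted p = 0.0131), and Clptm1, which limits the forward traffic of receptors, by -0.48 ± 0.08 (adjusted p = 0.00112). Gphn, encoding the scaffold gephyrin, was the only one higher, by 0.25 ± 0.08 (adjusted p = 0.0170). The metabotropic receptor subunit Gabbr1 was lower by -0.37 ± 0.07 (adjusted p = 0.00188). The chloride extruder Slc12a5 was lower by -0.31 ± 0.12 (adjusted p = 0.0488) and the GABA transaminase Abat by -0.20 ± 0.07 (adjusted p = 0.0372). Neither passed without Crx-/- ZT6 replicate 3 (adjusted p = 0.0841 and 0.0660). The membrane transporter Slc6a13 did not pass at 0.80 ± 0.39 (adjusted p = 0.114) and passed without the array that stood apart (1.11 ± 0.31, adjusted p = 0.00798).

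**Figure D5:**
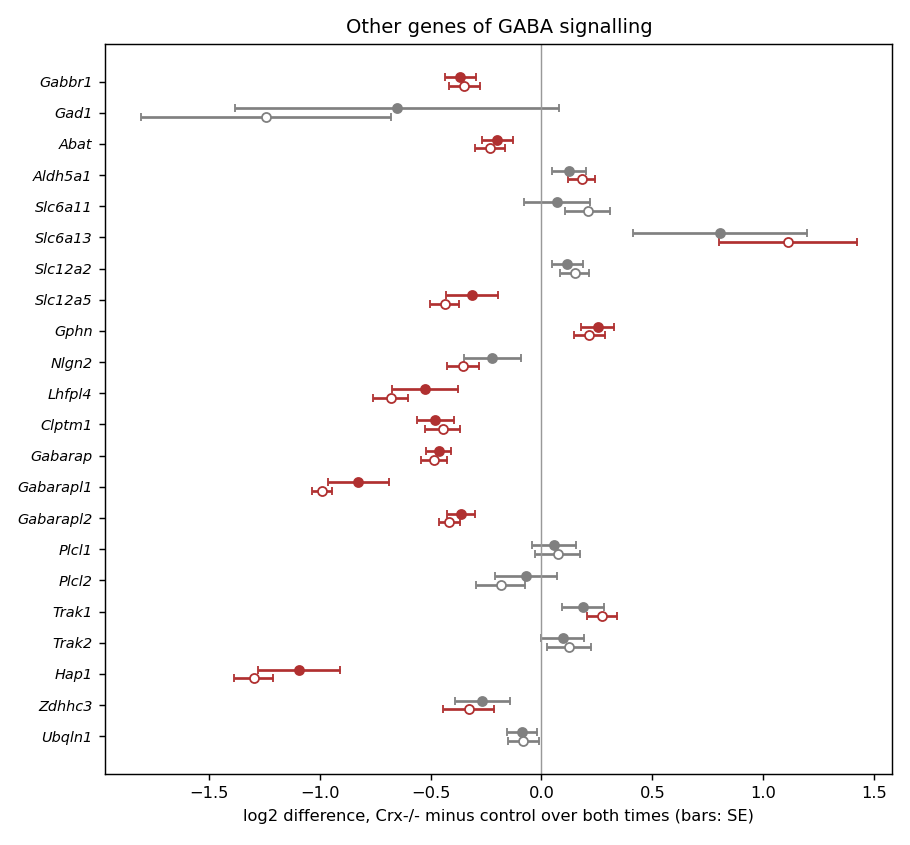
Crx-/- minus control log2 difference over both times, with bars of 1 SE, of the 22 other tested genes of GABA signalling, from all 12 arrays (filled) and with control ZT20 replicate 3 left out (open), in red where the gene passed. Hap1 at -1.09 and Gabarapl1 at -0.83 were the lowest of those that passed on all arrays, and Gphn at 0.25 was the only higher one.

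By time of day, 3 of the 22 passed in control glands and 1 in Crx-/- glands, where 16.2% and 1.57% of all genes did. Nlgn2, a neuroligin of inhibitory synapses, rose at night in control glands by 1.06 ± 0.18 (limma, adjusted p = 0.00275), and Plcl1, which binds GABARAP, fell by 0.83 ± 0.14 (adjusted p = 0.00252). Aldh5a1, which completes GABA breakdown, rose by 0.36 ± 0.11 in control (adjusted p = 0.0399) and by 0.63 ± 0.11 in Crx-/- glands (adjusted p = 0.0103). Its rise in control glands did not pass without the array labelled control ZT20 replicate 3.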

How the data were processed

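Pineal glands of control and Crx-/- mice were measured on 12 Affymetrix arrays. The deposited signal intensities came from GCOS, per the submitters' processing notes, whose version is not given in the sources used here. The authors' gene lists hold log2 and linear fold changes made with ChipInspector over both times, per the series' design text.

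From the deposited intensities, signals were quantile-normalized and fitted with limma 3.58.1 in R 4.3.3 as log2(signal + 3.4), the constant being the 10th percentile of all signals. Probe sets with 1 gene symbol (34945, with 932 holding several and 9160 none) were kept where at least 3 arrays reached the array median, and the brightest per gene was tested. Array trimmed means ran from 381.8 to 698.3, and 3 arrays a group limit the precision. The script was tested on simulated data. Same-numbered replicates did not deviate together (correlations of -0.26 to 0.21 over 18 pairs), so no block was used. The genes named are the 8 subunits, the listed GABA genes that passed a test and the 3 genes most alike to a subunit. Subunits and lists were chosen with earlier results of these data known. Alternatives were the scaling, the constant, the filter, the trend, the block and leaving out arrays.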

Additional observations from a re-analysis of the deposited data

Results flagged for a closer look

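The night minus day difference of Gabra3 and of Gabrr2 passed the test of a difference between genotypes once the array labelled control ZT20 replicate 3 was left out. The genes were chosen on genotype differences, and the test is not independent of that choice if a single time was used. The interaction was -1.44 for Gabra3 and -2.70 for Gabrr2 (log2, limma, adjusted p = 0.0273 and 0.0411). With all 12 arrays it was -1.47 and -3.14 and did not pass (adjusted p = 0.0956 and 0.121). With the array labelled Crx-/- ZT6 replicate 3 left out as well, Gabra3 kept its call at -1.25 (adjusted p = 0.0417) and Gabrr2 did not at -2.72 (adjusted p = 0.0533).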

How the results depend on the processing

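The number of arrays, 3 a group, and the background level, reached by Gabrd, Gabrr1 and Gabrr2 in some groups, limit these results. The night rise of Gabrr2 and fall of Gabrd in control glands passed under every alternative run, and the night rise of Gabra3 under all but the signals as deposited (0.84, adjusted p = 0.206). The cause of the differences below was not tested.

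On the signals as deposited, 1 subunit passed from day to night in Crx-/- glands (Gabrr1), and 3, 3 and 0 other GABA genes passed by genotype over both times, at ZT6 and at ZT20, against 10, 7 and 6. With no filter and with no trend in the spread, 2 passed at ZT20. Leaving out 1 array at a time gave 3 to 4 subunits from day to night in control glands, 0 to 3 in Crx-/- glands, 0 to 2 for the interaction and 0 to 15 other GABA genes at ZT20. Leaving out both arrays that stood apart, an alternative chosen after seeing the data, gave 5, 1, 2 and 13. The 2 interaction calls were then Gabra3 and Gabrd (1.63, adjusted p = 0.0420), the latter with every remaining Crx-/- array at background, so nothing is read from it. With the constant at 16 the genotype difference of Gabrd was -3.64.

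The replicate numbers are not said to pair the samples, and 5 of 12 arrays were closest to an array of their own number. With the replicate block Gabrb2 passed from day to night in control glands (1.43, adjusted p = 0.0385), 4 subunits passing in place of 3, and no other count moved beyond 1.5 times.

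Signs turned only for differences that passed in neither fit. As deposited, the Crx-/- night minus day difference of Gabrr2 was -0.03 and the interaction of Gabra4 0.057. Leaving out 1 array at a time, the control difference ran from -0.11 to 1.51 for Gabrr1 (the latter passing), -0.50 to 0.30 for Gabra4 and -0.35 to 0.35 for Gabrg1. The Crx-/- difference then ran from -0.14 to 0.26 for Gabrr2, -0.47 to 0.21 for Gabrb1 and -1 to 0.13 for Gabrb2, and the interaction from -0.70 to 0.10 for Gabra4 and -0.25 to 0.43 for Gabrb1. Without both arrays the Crx-/- difference was 0.21 for Gabrb1 and 0.13 for Gabrb2, and the interaction 0.34 for Gabra4 and 0.63 for Gabrb1.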
